A study of Mus musculus with 32 samples.

Results

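Partly methylated autosomal CpGs are CpG dinucleotides of chromosomes 1 to 19 at which neither the methylated nor the unmethylated state prevailed in the mouse retina. They were chosen by their measured level: the reads of both strands were added, at least 10 reads were required in every one of 16 libraries, and the unweighted mean of the percent methylation over the 16 libraries had to lie between 20 and 80. Of 1045775 autosomal CpGs with that depth, 116834 (11.2%) met the rule, while 597275 (57.1%) were under 20% and 331666 (31.7%) over 80%. The assay was RRBS, reduced representation bisulfite sequencing: the enzyme MspI cuts DNA at CCGG, bisulfite converts unmethylated cytosines, and the fragment ends are read. The 8 spaceflight libraries (mice M21 to M27 and M29) came from female C57 BL/6J mice launched at 16 weeks of age and kept on the International Space Station for 37 days, and 8 ground habitat control libraries (M31 to M37 and M39) from female C57 BL/6J mice kept on Earth in the same kind of enclosure. The labels give an age of 21 weeks for both groups, each library is 1 retina of 1 mouse, and each group has 3 left and 5 right retinas. All mice were frozen whole, the flown ones in orbit, and thawed for dissection, so that spaceflight cannot be told apart from launch and from handling in orbit.

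In mammalian DNA most CpGs are either nearly free of methylation, as in the CpG islands over gene starts, or methylated on nearly every copy. A level in between can arise where the parental copies differ, as at imprinted genes, where cell types of a tissue differ, where the cells of a type differ, or where reads from several copies of a repeat are put on one position. A whole retina mixes rods with other neurons, Müller glia and vessels, and RRBS reads do not tell these sources apart.

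The stretches that carry the main findings are printed here from the GRCm38 plus strand, with the CG of each partly methylated CpG in capitals and other CpGs in lower case. None of them overlaps an annotated exon. The first 3 are series in which every measured CpG was partly methylated, at chr11:12026185-12026469 in an intron of the imprinted gene Grb10, at chr17:12742236-12742421 in an intron of the imprinted RNA gene Airn, and at chr17:39845539-39845837 in a stretch of ribosomal DNA whose nearest annotated start is AY036118.
Grb10 run: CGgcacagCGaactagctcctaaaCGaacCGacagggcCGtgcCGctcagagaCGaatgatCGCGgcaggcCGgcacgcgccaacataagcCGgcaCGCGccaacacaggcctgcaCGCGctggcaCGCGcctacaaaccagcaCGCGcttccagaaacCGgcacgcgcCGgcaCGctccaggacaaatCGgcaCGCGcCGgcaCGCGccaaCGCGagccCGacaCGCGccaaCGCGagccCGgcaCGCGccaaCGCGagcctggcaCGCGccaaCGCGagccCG
Airn run: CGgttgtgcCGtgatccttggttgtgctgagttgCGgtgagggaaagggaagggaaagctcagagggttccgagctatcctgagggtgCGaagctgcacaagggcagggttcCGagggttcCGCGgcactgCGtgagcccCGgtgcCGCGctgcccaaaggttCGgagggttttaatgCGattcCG
ribosomal run: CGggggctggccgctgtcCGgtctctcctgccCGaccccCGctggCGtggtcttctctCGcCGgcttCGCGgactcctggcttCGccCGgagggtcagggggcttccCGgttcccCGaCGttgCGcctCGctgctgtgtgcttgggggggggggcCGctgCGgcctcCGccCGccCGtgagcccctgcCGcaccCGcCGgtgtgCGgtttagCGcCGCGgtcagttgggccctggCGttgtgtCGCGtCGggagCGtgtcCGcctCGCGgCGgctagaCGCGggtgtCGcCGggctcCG
The next 4 held CpGs with the largest spread between retinas, at chr11:6007122-6007241 in an intron of Camk2b, chr8:124861608-124861669 in an intron of 2810004N23Rik, chr3:88468358-88468419 near Gm40089 and chr17:36231237-36231306 near Rpp21.
Camk2b run: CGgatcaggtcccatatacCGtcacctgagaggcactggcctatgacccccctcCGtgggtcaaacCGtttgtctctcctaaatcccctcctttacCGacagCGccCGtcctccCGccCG
2810004N23Rik CpG: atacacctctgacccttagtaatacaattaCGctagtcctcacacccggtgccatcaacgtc
Gm40089 CpG: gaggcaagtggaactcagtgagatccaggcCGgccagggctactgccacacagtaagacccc
Rpp21 CpGs: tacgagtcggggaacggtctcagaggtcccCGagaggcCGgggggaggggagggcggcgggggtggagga
The last 4 held CpGs that were among the 5 with the lowest unadjusted p in either direction between spaceflight and ground control retinas at a difference of 10 points or more, at chr4:108364242-108364303 near Gm46889, chr1:133264530-133264591 near Plekha6, chr8:121454874-121454935 near Gm26747 and chr2:18041372-18041433 near A930004D18Rik. The tested CpG is the one at the centre of each stretch.
Gm46889 CpG: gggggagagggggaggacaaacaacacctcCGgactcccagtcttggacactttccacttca
Plekha6 CpG: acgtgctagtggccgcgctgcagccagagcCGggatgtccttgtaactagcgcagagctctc
Gm26747 CpG: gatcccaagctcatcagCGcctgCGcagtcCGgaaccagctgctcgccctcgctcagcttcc
A930004D18Rik CpG: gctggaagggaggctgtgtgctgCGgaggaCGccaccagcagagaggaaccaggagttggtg

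Reads on CpG cytosines numbered 61652709 to 80242659 in spaceflight libraries, with a median of 44 to 56 reads per shared CpG, and 59572205 to 105298542 in ground control libraries, with a median of 39 to 70. No 2 libraries agreed within sampling noise (chi-square per degree of freedom from 1.19 for M24 and M27 to 2.97 for M26 and M31). The ground control library of M31 stood apart from the rest: it had a loading of 0.843 on the first principal component of the partly methylated CpGs, which held 14.2% of the variance. Differences that M31 moved by over 1.5 times are given without it as well for the mean over all members, the longest runs, Camk2b and Airn. For the single CpGs with the largest spread they are not given. Of the 12 measured rod gene promoters 10 were under 20% methylated, against 85.8% of 16587 autosomal promoters, so that this did not check the tissue label. Of 11 promoters of germline genes 9 were over 80%, against 6.11% of all.

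The levels of the partly methylated CpGs were spread over the whole range with a median of 57.3% (quartiles 38.0 and 71.5%). The number of CpGs per step of 5 points fell from 9076 at 20 to 25% to 7358 at 35 to 40% and rose to 18994 at 75 to 80%, so that 31004 members (26.5%) lay at 40 to 60%. At the edges of the rule, 1903 CpGs lay at 20 to 21% just inside and 1930 at 19 to 20% just outside, and 4371 at 79 to 80% just inside against 4632 at 80 to 81% just outside. No gap in the levels marked either edge. In 50612 members (43.3%) the level stayed within 20 to 80% in every library. Their depth was that of other CpGs, with a median of 49.5 reads against 52.5 for CpGs under 20% and 49.0 for those over 80%, and 81149 had at least 20 reads in every library. Counted in each library alone, CpGs at 20 to 80% made up 12.1 to 13.2% of the autosomal CpGs with at least 10 reads in spaceflight and 12.7 to 13.5% in ground control retinas.

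**Figure D1:**
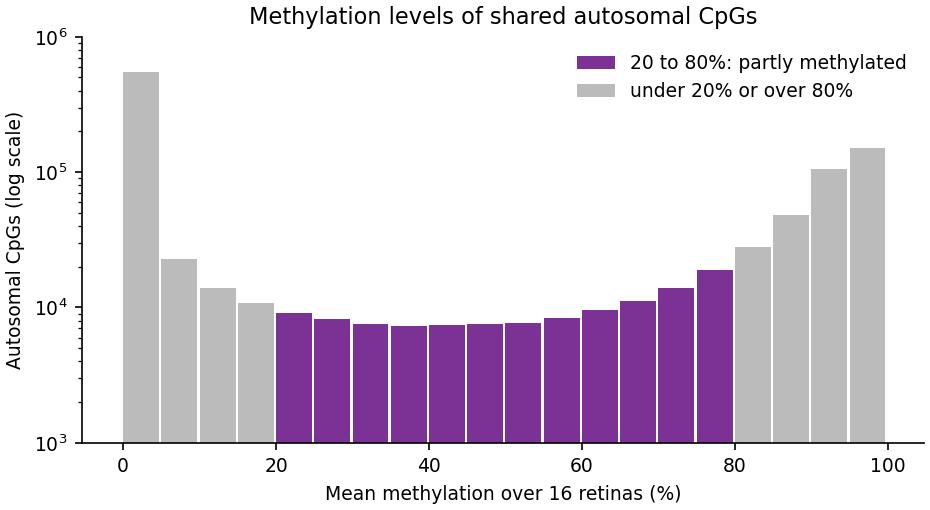
Number of autosomal CpGs (log scale) by mean methylation over 16 retinas, in steps of 5 points. The partly methylated CpGs (20 to 80%, purple) form the low floor between the CpGs under 20% and over 80% (grey), with 7358 to 18994 CpGs per step.

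Partly methylated CpGs were scarce in promoters and CpG islands and common around them. They made up 3.46% of the CpGs within 1000 bp of an annotated gene start, against 16.7% in exons, 21.9% in introns and 18.9% between genes. Islands, called from the GRCm38 sequence (at least 200 bp, at least 50% G and C, at least 0.6 of the CpGs that the base content would give), held 3.43%, their shores (up to 2000 bp away) 23.6%, shelves (up to 4000 bp) 23.5% and open sea 20.6%. The step lay at the island's border: the share was 3.43% inside, 17.9% at 1 to 100 bp, 22.1% at 101 to 250 bp and reached 26.1% at 251 to 500 bp before it fell to 13.97% beyond 50000 bp. Around gene starts it was 1.98% from 200 bp before to 199 bp after the start and 21.2% at 2001 to 5000 bp before it. Of the members themselves, 49.2% lay in open sea, 21.9% in shores, 17.7% in islands and 11.2% in shelves.

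The sequence around members was close to that of highly methylated CpGs. A median of 11 CpGs (quartiles 8 and 16) lay in the 501 bp around a member, against 10 around CpGs over 80% and 47 around CpGs under 20%, and the median G and C content was 51.9%, against 49.7% and 67.5%. By CpG density, the share of partly methylated CpGs was highest, at 24.03%, with 10 to 14 CpGs in 501 bp and was 0.913% with 60 or more. One difference from highly methylated CpGs was in repeats: 6.80% of members lay in the lower-case, repeat-masked part of the genome, against 21.0% of CpGs over 80%. The bases next to the CpG went with the level as well. Outside islands and MspI sites, among CpGs that were not under 20%, 36.4% were partly methylated in the context ACGT, 32.1% in ACGA and 28.5% in ACGG, but 21.0% in CCGC and 19.7% in GCGC (a context includes its reverse complement).

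Along the chromosomes, partly methylated CpGs were present on every autosome, from 8.77% of the measured CpGs on chromosome 3 to 12.4% on chromosome 4. Chromosome X, which is not part of the set, had 11760 of 25657 CpGs (45.8%) at 20 to 80%, as background for female mice that silence 1 X per cell. Over 1914 bins of 1 megabase with at least 100 measured CpGs, the share ranged from 3.86% at the 10th to 17.5% at the 90th percentile with a median of 9.55%, and 5 bins held no member. The bin with the highest share, chr17:39000001-40000000, had 389 of 542 CpGs (71.8%), of which 376 lay in the ribosomal stretch described below. It was followed by chr12:19000001-20000000 (49.8%), by chr7:62000001-63000000 (46.0%), which holds the imprinted genes Peg12, Magel2 and Mkrn3, and by chr7:107000001-108000000 (44.4%), where 127 of 146 members were nearest to Rbmxl2.

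Members lay next to members. After a partly methylated CpG, the next measured CpG was partly methylated in 71.7% of cases at 1 to 10 bp, 66.4% at 11 to 25 bp and 51.8% at 76 to 150 bp, against 4.91%, 10.1% and 21.1% after any autosomal CpG at the same distances. CpGs up to 75 bp apart can share a read, and those further apart cannot. The likeness faded with distance: at 1001 to 5000 bp it was 25.8% against 22.1%, and beyond 50000 bp 12.4% against 11.3%. Where both neighbours were members, their levels differed by a median of 9.21 points at 1 to 10 bp and 17.4 points at 1001 to 5000 bp. When the neighbour of a member was not a member, it was more often over 80% than under 20% at every distance, by 15.2% against 13.1% at 1 to 10 bp and 56.4% against 17.8% at 1001 to 5000 bp.

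**Figure D2:**
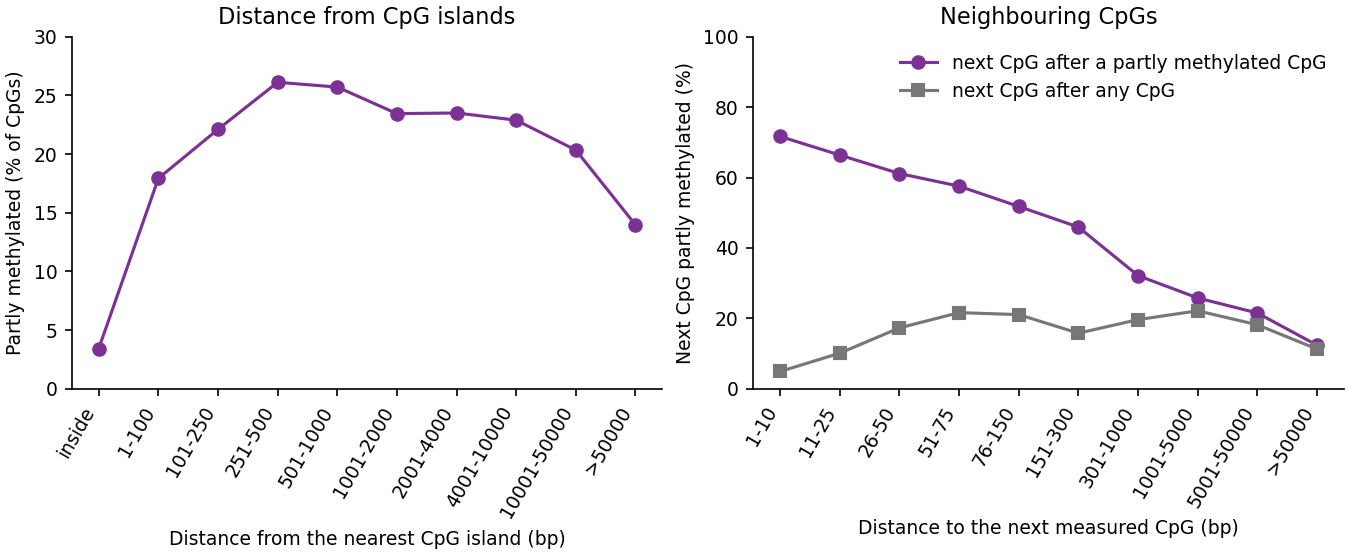
Left, share of autosomal CpGs that were partly methylated (%) by distance from the nearest CpG island (bp); it rises from 3.43% inside islands to 26.1% at 251 to 500 bp. Right, share of next measured CpGs that were partly methylated (%), by distance (bp), after a partly methylated CpG (purple) and after any CpG (grey); the curves start at 71.7% and 4.91% and nearly meet beyond 50000 bp.

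Joined where consecutive measured CpGs were all members with gaps of at most 100 bp, the members formed 65112 runs. Single CpGs made up 39861 of these, 22160 runs held 2 to 4 members, 2740 held 5 to 9, 319 held 10 to 19 and 32 held 20 or more. The 3091 runs of 5 or more held 21199 members (18.1%). Long runs lay in islands: 10.7% of the single members were in an island, against 95.8% of the members in runs of 20 or more. The 12 runs with the most members are described next, each named by the nearest annotated gene start.

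The longest run, chr7:107210196-107210642, held 54 members in an island in the promoter window of Rbmxl2, which encodes an RNA-binding protein of male germ cells. Its mean was 34.3 ± 5.4% in spaceflight (lowest 26.8, median 33.4, highest 42.9%) and 35.9 ± 5.6% in ground control retinas (27.5, 35.1 and 43.1%; SD, n = 8 each), and the groups overlapped over nearly their whole range. Imprinted genes gave 4 of the other runs. The Grb10 run printed above (45 members; Grb10 encodes an adaptor that restrains growth factor signalling) averaged 48.3 ± 2.2% in spaceflight (43.8, 48.3 and 51.03%) and 50.8 ± 2.1% in ground control retinas (46.0, 51.7 and 52.4%). A run at Hymai, an imprinted transcript of the Plagl1 locus that is not on the gene list used further on (chr10:13090813-13091189, 40 members), was at 44.4 ± 1.9% against 46.3 ± 3.6%, and a run at Cdkn1c, which encodes a cyclin-dependent kinase inhibitor (chr7:143459759-143460202, 33 members), at 39.1 ± 1.8% against 41.8 ± 3.7%. The imprinted retrogene Mcts2 (chr2:152686813-152687149, 28 members) had 44.1 ± 3.0% in spaceflight against 46.9 ± 4.1% in ground control retinas. In each of these 4 the groups overlapped.

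Another 6 runs were nearest to the starts of other genes. A run of 33 members in an annotated exon had its nearest start, that of Polrmt (the mitochondrial RNA polymerase), 11105 bp away. It averaged 54.3 ± 5.4% in spaceflight and 54.2 ± 5.0% in ground control retinas. Whether the exon belongs to Polrmt was not tested. In an exon of Ccdc177, runs of 32 and 28 members were at 67.1 ± 4.6% against 66.1 ± 4.9% and at 61.0 ± 5.8% against 56.9 ± 8.5%. Isyna1, which makes inositol phosphate from glucose phosphate, had 31 members at 55.3 ± 3.9% against 55.9 ± 5.7%, and Rcor2, a corepressor of neuronal genes, had 29 members around its start at 54.1 ± 3.8% against 53.3 ± 5.7%. Near Gm52002 on chromosome 12, 27 members were at 40.4 ± 6.8% in spaceflight and 46.7 ± 6.0% in ground control retinas, with retinas from 29.6 to 49.6% and from 38.3 to 54.99%. Levels along these runs were uneven: single CpGs of the Polrmt run ran from 20.7 to 77.7%, against 39.5 to 54.5% in the Grb10 run. Without M31 the difference moved to 1.83 points, against 4.14, in the run of 28 members at Ccdc177, to 0.58, against 1.07, in the other one, to −0.50, against −1.54, at Rbmxl2, and to −2.05, against −0.58, at Isyna1. It changed sign at Rcor2 (−0.86, against 0.76) and Polrmt (−0.91, against 0.08). No CpG of any of these runs passed the adjusted threshold between the groups (adjusted p of at least 0.865), including the 42 of the ribosomal run, the third longest, which is described with the ribosomal stretch.

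Runs at imprinted genes lay near the middle more often than other runs. Imprinted genes are expressed from 1 parental copy, and their control regions are methylated on 1 copy of each pair. On a list of 48 imprinted genes, 24 had at least 1 run of 5 or more members, together 54 runs with 580 members, and 17 of the 24 had a mean of 40 to 55%. Their means ranged from 28.4% at Peg12 to 60.4% at Nnat. Gnas, which encodes the stimulatory G protein alpha subunit, led with 12 runs and 126 members, followed by Grb10 with 5 runs and 85 members and Cdkn1c with 5 runs and 64 members. Of the imprinted runs 68.5% had a mean of 40 to 55%, against 46.0% of the 3008 other runs outside the ribosomal stretch, which include the Hymai run. Of all CpGs in the promoters and bodies of imprinted genes 43.6% were partly methylated, against 9.12% over all autosomal genes, and 24 of 40 imprinted promoters had a mean of 20 to 80%.

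Other gene lists had fewer members, and the lists for retinal cells lay on both sides of the value for all genes. The share of partly methylated CpGs was 19.7% for rod genes, 17.4% for bipolar, 11.8% for ganglion cell, 10.6% for amacrine, 10.5% for Müller glia, 7.25% for cone and 6.47% for horizontal cell genes. Genes of cells outside the neural retina had 16.0% (microglia and blood, on 106 CpGs), 15.2% (endothelium and pericytes), 13.6% (pigment epithelium and melanocytes) and 10.7% (lens and cornea). Germline genes had 11.01%, housekeeping genes 3.25% and Hox genes, the body axis regulators, 0.545% (16 of 2934 CpGs). Retinal genes with many members included Ebf3 (52 of 401 CpGs) and Rbpms (49 of 177) on the ganglion cell list, Esrrb (34 of 161) on the rod list, Slc1a3 (20 of 64), the glutamate transporter of Müller glia, and Pax6 (20 of 136).

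On the rod list, Nr2e3, a transcription factor, had 3 members among 6 promoter CpGs, and promoter means were 14.5% for Prph2, 11.8% for Slc24a1 and 0.425% for Nrl.

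Genes with a partly methylated promoter had RNA levels between those of the other classes. Over 12637 genes with at least 5 measured promoter CpGs and an entry in the expression table, the median of the mean FPKM over 15 RNA libraries was 1.16 (quartiles 0.147 and 6.08) for 804 genes with a promoter at 20 to 80%, 8.34 for 11361 genes under 20% and 0.0679 for 472 genes over 80%. FPKM are fragments per kilobase of transcript scaled to the size of the library, and this is a description over genes, which are not independent of each other. High values in the partly methylated class were found for Gnas (879 FPKM), Cryab, a small heat shock protein of lens and glia (814 FPKM), and Trf, transferrin (457 FPKM). Rlbp1 of Müller glia, with 7 members and a promoter mean of 31.98%, had 216 FPKM. A promoter mean is over all annotated starts of a gene, and those of Rlbp1 were unlike. CpGs at chr7:79392138-79392193 were at 0.58 to 1.61%, and those at chr7:79386514-79386573 at 31.3 to 57.7%. Which start gave the RNA was not tested.

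Retinas differed from each other at partly methylated CpGs by more than the sampling of reads gives. Within groups, the root mean square SD between retinas was 8.51 points, of which a binomial draw of the reads accounts for 7.07 and 4.74 points remained. For a single member the median of this remaining SD was 3.91 points and the 95th percentile 9.38, and at 23.5% of members the observed variance was not above that of sampling. A Pearson chi-square test of the reads around each group's pooled level (14 degrees of freedom, Benjamini-Hochberg adjusted over all shared CpGs) called 6367 members (5.45%), against 1.86% of all shared CpGs tested, 0.784% of those under 20% and 2.41% of those over 80%. M31 carried much of this: without it 2.31% of members were called. The remaining SD was largest at mid level, 5.30 points at 50 to 55%, and 4.005 points at 20 to 25% and 4.25 points at 75 to 80%. It was 4.28 points among spaceflight and 5.16 points among ground control retinas, and 4.23 points among ground control retinas without M31.

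**Figure D3:**
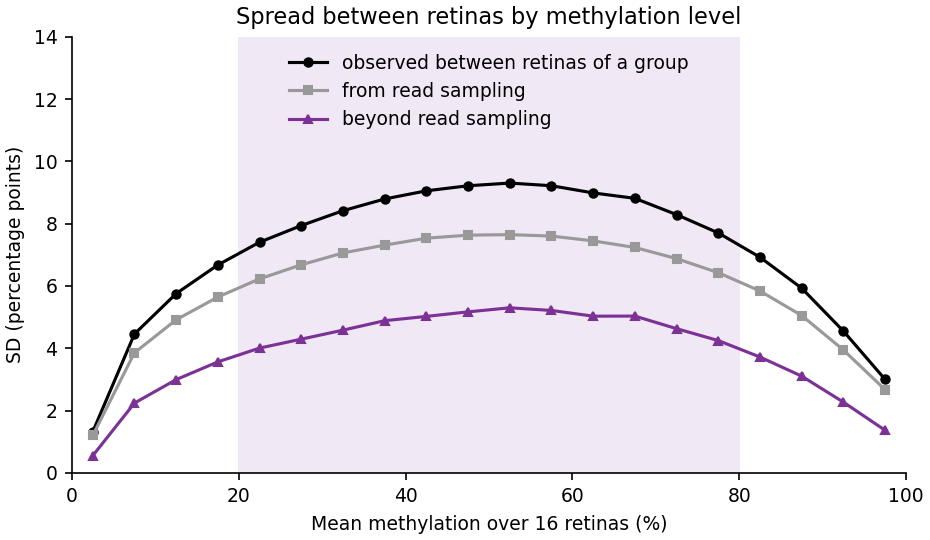
SD between retinas of a group (percentage points) by mean methylation over 16 retinas in steps of 5 points: observed (black circles), expected from read sampling (grey squares) and the part beyond sampling (purple triangles), with the 20 to 80% range shaded. The part beyond sampling peaks at 5.30 points at 50 to 55%.

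The share of members called went with depth. With a median under 30 reads, 2.64% were called, and with 100 reads or more 16.99% (13.4% without the ribosomal stretch), although the remaining SD was smaller in the deeper CpGs, 3.58 against 5.87 points. By place, the remaining SD hardly varied: it was 4.69 points in islands, 4.75 in shores, 4.69 in shelves and 4.77 in open sea.

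Reads from the plus and the minus strand of a CpG come from different fragment strands, so a deviation that both share is not read sampling. At 22679 members with at least 10 reads on each strand in every library, the strands shared an SD of 2.76 points of the 3.74 points that remained beyond sampling in the summed reads. Levels on the strands were alike over the members (Pearson r = 0.883 across CpGs, which share libraries), with a median difference of 3.83 points, and 1127 members (4.97%) had strands over 20 points apart, against 0.0710% of CpGs over 80%. Nearby members deviated together. The covariance of their deviations, as a ratio to the variance beyond sampling, was 0.687 at 26 to 75 bp, 0.305 at 76 to 150 bp, where no read covers both, 0.127 at 1001 to 5000 bp and 0.0632 for members on different chromosomes. That last value describes retinas that were low or high over the whole set.

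Imprinted runs varied less than other runs. The SD beyond sampling was 3.38 points in the 580 members of imprinted runs and 4.86 points in the 20290 members of other runs outside the ribosomal stretch, and 1.38% against 6.64% of members were called in the test of spread. Restricted to members at 40 to 60%, where sampling noise is alike, the values were 3.31 against 5.12 points and 1.15% against 6.13%. The part of M31 in this contrast was not tested. M31 was the lowest retina over all members (51.6%) but lay within the ground control range over imprinted runs (47.1%). In the Grb10 run the dispersion, the chi-square divided by its degrees of freedom, had a median of 0.638, and no variance beyond sampling was left, whereas the run of 28 members at Ccdc177 had 1.96 and 8.96 points.

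The 6 members with the largest spread, among 54949 with at least 30 reads in every library, are described by their values, since their spread chose them. At chr8:124861638, in an intron of 2810004N23Rik, spaceflight retinas M21 to M27 and M29 had 0, 32.1, 98.8, 38.1, 47.1, 97.1, 94.4 and 97.3%, and ground control retinas M31 to M37 and M39 had 95.7, 40.2, 43.0, 43.7, 43.0, 98.7, 98.7 and 94.9%. In both groups retinas fell at 32 to 47% and at 94 to 99%, and spaceflight retina M21 alone was at 0%, with 71 to 127 reads each. All 1389 reads on this CpG came from the minus strand, and the CpGs 96 bp before and 16 and 28 bp after it were at 97.0, 93.6 and 92.5% with retinas between 80.7 and 100%. Whether methylation alone sets the levels at this CpG was not tested.

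**Figure D4:**
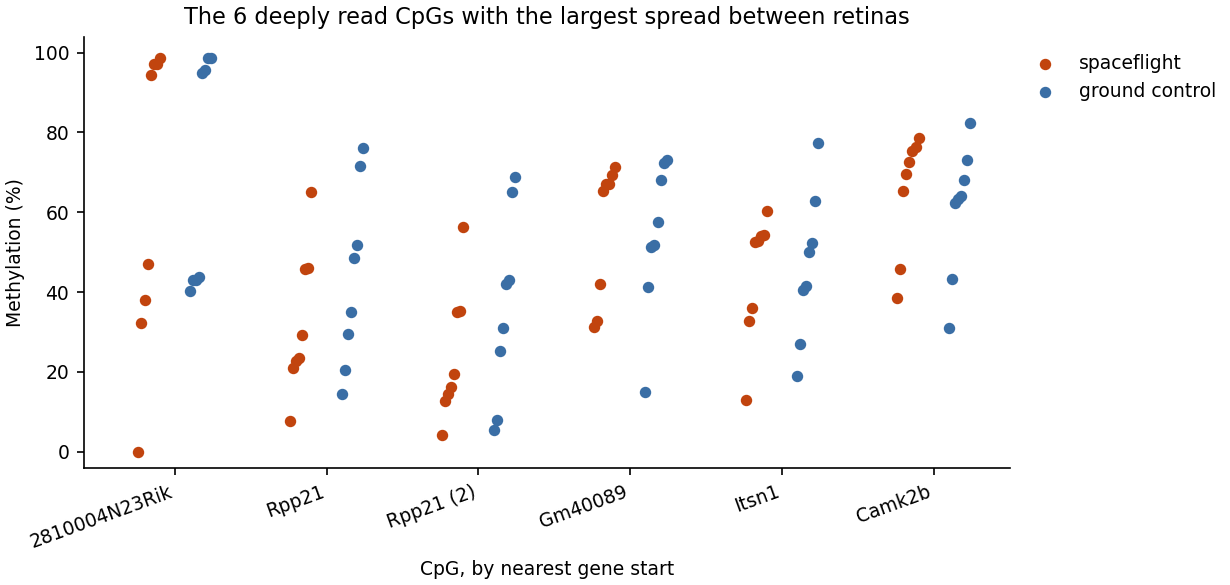
Methylation (%) in each retina at the 6 CpGs with the largest spread between retinas beyond read sampling, among those with at least 30 reads in every library, named by the nearest gene start. Red points are the 8 spaceflight and blue points the 8 ground control retinas; at 2810004N23Rik the points fall at 0%, at 32 to 47% and at 94 to 99%.

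Near Rpp21, an RNase P subunit gene with its start 26571 bp away, a pair of CpGs 8 bp apart at the border of deeply read sequence ranged widely. The CpG at chr17:36231275 had 7.69, 26.3 and 65.2% (lowest, median, highest) in spaceflight and 14.5, 41.8 and 76.2% in ground control retinas, and that at chr17:36231267 had 4.21, 17.8 and 56.3% against 5.41, 36.5 and 68.8%. CpGs 24 to 52 bp before them were under 3%, and those 16 to 52 bp after them carried up to 31097 reads on the minus strand. The CpG near Gm40089 (chr3:88468388) had 31.3, 66.2 and 71.4% against 15, 54.7 and 73.1%, and an exonic CpG of Itsn1, an endocytic scaffold (chr16:91830507), 12.9, 52.7 and 60.2% against 19.05, 45.8 and 77.4%. At Itsn1 the lowest retinas were M21 among the spaceflight and M31 among the ground control ones.

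Camk2b, a subunit of calcium/calmodulin-dependent kinase II, had a whole run of 9 variable CpGs in an island in its intron, all among the 1% of members with the largest spread. Their mean was 51.9, 80.1 and 88.8% in spaceflight and 35.2, 70.5 and 86.4% in ground control retinas, or 74.5 ± 13.6% against 66.3 ± 16.5% (SD, n = 8 each). The low retinas were M23 (51.9%) and M26 (56.2%) among the spaceflight and M31 (35.2%) and M36 (50.2%) among the ground control retinas, and the groups overlapped. The difference was 8.21 points, and 3.77 points without M31. It was 0.60 points in right and 20.9 points in left retinas (3 a group), and 6.63 points in left retinas without M31.

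Whether spaceflight and ground control retinas differed was tested at each CpG with a logistic model of its reads, with an overdispersion of at least 1 estimated from the retinas and Benjamini-Hochberg adjustment over all 1071432 shared CpGs. The rule took the mean over both groups and did not use the difference. No member reached both an adjusted p of 0.05 and a difference of 10 points (0 of all shared CpGs, 0%), and the lowest adjusted p was 0.865. Power was limited. Reads were simulated for 20000 members with an SD of 5 points between retinas and 200 changed CpGs, adjusted over these alone. The adjusted threshold was passed by 0% of changes of 10 points, 37.5% of 20 points and 92.5% of 30 points. The data were adjusted over 1071432 shared CpGs, so power in them can be lower than in this simulation. The absence of calls therefore does not show that differences of 10 points or more were absent. An unadjusted p of at most 0.05 was found at 4798 members (4.11%), against 4.09% of all shared CpGs. Of these, 1500 also differed by 10 points or more. A binomial test that ignores the spread between retinas called 77 members, and its calls over all shared CpGs were not counted. The groups did not overlap at 25 members (0.0214%), against 0.00803% of all shared CpGs. That reference combines 0.00201% of autosomal CpGs under 20%, 0.0136% of those over 80% and the members themselves. Where no retinas tie, random splits of the retinas separate the groups with a probability of 0.000155 per CpG, the smallest p of an exact permutation test. The 0.00803% lies below this chance level, so it does not show an excess among members. Whether 25 members exceed chance was not tested.

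Among the 1500, 824 were lower and 676 higher after spaceflight, or 0.705% and 0.579% of members against 0.107% and 0.081% of all shared CpGs. Reads scatter most at mid level, and 1.91% of members differed by that much at any p, against 0.0151% of CpGs under 20% and 0.0699% of CpGs over 80%. The share that was lower, 54.9%, depended on single retinas: it was 65.5% without M31, 46.5% without spaceflight mouse M22 and 49.0% without M23. Without the size condition, 2909 members were lower and 1889 higher, of which 359 of the lower ones lay in the ribosomal stretch. The same split over all shared CpGs was not counted.

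Averaged over all members, the groups overlapped. Spaceflight retinas M21 to M27 and M29 had 54.5, 52.3, 52.8, 54.6, 55.3, 55.6, 54.3 and 54.7%, and ground control retinas M31 to M37 and M39 had 51.6, 54.9, 55.06, 55.05, 55.1, 54.8, 54.0 and 54.9%. The means were 54.3 ± 1.16% and 54.4 ± 1.21% (SD, n = 8 each), a difference of −0.16 points. M31, M22 and M23 were the 3 lowest retinas, and leaving out 1 retina gave −0.57 points (without M31) to 0.13 points (without M22). The same held by place, with 47.0 ± 0.71% against 47.2 ± 1.06% in islands, 53.3 ± 1.21% against 53.4 ± 1.31% in shores and 56.9 ± 1.32% against 57.1 ± 1.28% in open sea. The retinas that were low over the members were low at CpGs over 80% as well, at 92.3% in M31 and 92.5% in M22, against 92.9 to 93.4% in the other retinas.

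**Figure D5:**
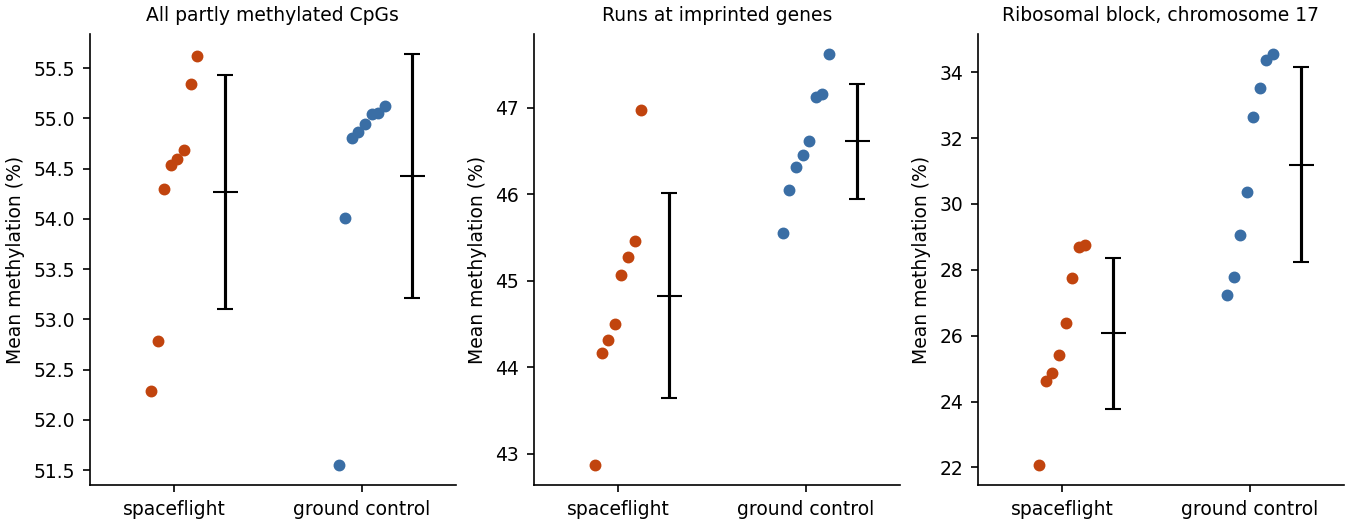
Mean methylation (%) of each retina over all 116834 partly methylated CpGs, over the 580 members of runs at imprinted genes and over the 376 members of the ribosomal stretch on chromosome 17. Points are retinas (spaceflight red, ground control blue), and bars show the mean and SD of 8; the vertical axes do not start at 0. The group means are 54.3 and 54.4%, 44.8 and 46.6%, and 26.1 and 31.2%.

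The 5 members with the lowest unadjusted p that were higher by 10 points or more after spaceflight were near noncoding or predicted genes and Plekha6. The Gm46889 CpG (chr4:108364272, at −13075 bp from the start) had 26.9, 31.9 and 40.4% in spaceflight and 13.3, 18.8 and 22.5% in ground control retinas (32.7 ± 4.9% against 18.7 ± 2.9%, SD, n = 8 each), with no overlap, on 26 to 68 reads. Plekha6 (chr1:133264560) had 60.7, 72.0 and 78.1% against 33.3, 50.8 and 62.9%, on 10 to 35 reads. Gm13056, Gm41584 and Gm32694 had 50.5 ± 6.3% against 36.7 ± 3.7%, 66.4 ± 6.7% against 53.0 ± 3.4%, and 82.4 ± 3.2% against 71.8 ± 5.9%. In these 4 the groups overlapped.

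Of the 5 that were lower by as much, the one near the start of Parvaos (chr7:112535347) had the lowest p, with 53.5, 60.8 and 64.8% in spaceflight and 64.3, 76.5 and 80.6% in ground control retinas. CpGs 6 bp before and 9 and 16 bp after it differed by −1.26, −0.10 and 0.61 points. CpGs 7, 13 and 35 bp before the Gm26747 CpG differed by −11.3, −7.66 and −5.26 points. CpGs 20 and 38 bp after the Plekha6 CpG differed by 4.15 and 16.9 points. All these neighbours lie close enough to share reads with the CpG that was picked, so they are not separate evidence. The groups did not overlap near Gm26747 (chr8:121454904), with 51.5, 60.1 and 71.7% against 74.5, 81.6 and 92.3%, and near A930004D18Rik (chr2:18041402), with 68.9, 71.8 and 73.8% against 75.6, 83.0 and 88.9%. The A930004D18Rik CpG, on 64 to 107 reads, varied by 1.66 points (SD) in spaceflight and 3.75 points in ground control retinas, with a dispersion of 0.439, under the value of 1 that read sampling alone gives. Arid1b, a chromatin remodelling subunit, had 65.9 ± 10.8% against 85.6 ± 5.3% and Gm34057 53.3 ± 10.2% against 78.2 ± 11.1%. All 10 of these CpGs had an adjusted p of 0.865 in the logistic model. By a two-sided exact permutation test of the means over retinas, their unadjusted p ranged from 0.000155, the smallest that 12870 splits can give, to 0.00124; they were picked for low p among members that differed by 10 points or more.

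The same comparison was made on reads summed over windows of 1000 bp with at least 3 shared CpGs. Of 19439 windows with a mean of 20 to 80%, none was called (0% of 101997 windows), the lowest adjusted p of the same model was 0.990, and 1052 (5.41%) reached an unadjusted p of 0.05, against 4.64% of all windows. The window with the lowest p, in an intron of Rhbdd3, a rhomboid family member (chr11:5102001-5103000), had 49.0, 54.2 and 55.9% in spaceflight and 54.4, 63.0 and 67.2% in ground control retinas. Next came Ppp1r18 (75.8 ± 3.2% against 68.3 ± 3.3%), Mxra7 (55.5 ± 1.3% against 50.1 ± 2.5%), the start of the vomeronasal receptor gene Vmn2r29 (40.7 ± 3.4% against 50.2 ± 5.2%) and Gm24472 (65.0 ± 7.4% against 77.4 ± 3.6%). With the counts summed, the test of spread called 54.0% of the partly methylated windows, against 28.4% of windows under 20% and 20.9% of those over 80%. In a window a read counts once for each of its CpGs, and the test takes these counts as separate draws. These shares are therefore not a measure of spread between retinas alone and cannot be set against those of single CpGs.

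Runs at imprinted genes had a lower mean after spaceflight, with groups that overlapped in 1 retina. Averaged over their 580 members, spaceflight retinas lay at 42.9, 44.8 and 47.0% (lowest, median, highest; 44.8 ± 1.19%) and ground control retinas at 45.5, 46.5 and 47.6% (46.6 ± 0.67%; SD, n = 8 each), a difference of −1.78 points that was −1.86 in right and −1.65 in left retinas and −2.09 to −1.50 when 1 retina was left out. Of the spaceflight retinas 7 lay below every ground control retina, and M21 (47.0%) lay within the ground control range. Of the 54 runs 38 (70.4%) were lower, against 1536 of 3008 other runs (51.1%), and 19 of the 24 genes were lower. Gnas had 43.7 ± 0.96% in spaceflight and 45.8 ± 1.20% in ground control retinas, Grb10 47.5 ± 2.1% and 49.4 ± 1.2%, Airn 43.9 ± 3.3% and 48.5 ± 6.4% (46.7 ± 4.2% without M31, at 61.2%, which turns the difference of −4.62 into −2.82 points), and Mkrn3 27.4 ± 4.5% and 34.1 ± 4.6%. Nnat went the other way, at 61.8 ± 4.7% against 58.9 ± 5.2%, and Commd1, Impact, Peg12 and Slc38a4 were higher by 0.10 to 0.44 points. Without M31, 22 of the 24 genes were lower. Of the 580 members 44 (7.59%) reached an unadjusted p of 0.05, against 4.09% of all shared CpGs, and none passed the adjusted threshold. Gnas held 13 of the 44, Grb10 11, Airn and Cdkn1c 6 each and Mcts2 5, and the rest lay at Mkrn3 and Zrsr1. CpGs of a run can share reads, so the 44 are not independent of each other.

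The members that differed most uniformly between the groups lay in ribosomal DNA. A stretch of chromosome 17 (chr17:39843014-39848819) holds 440 measured CpGs, of which 376 (85.5%) were partly methylated, and RefSeq annotates its part at chr17:39846354-39848202 as Rn18s-rs5, a sequence related to the small ribosomal RNA. Ribosomal RNA genes exist in many copies, part of which are silenced by methylation, and the genome build has only fragments of them. The CpGs of the stretch had a median of 4381 reads per retina, so that the reads come from many copies that cannot be told apart, and a share of methylated copies cannot be told apart from a change in copy number.

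All 376 members of the stretch were lower after spaceflight, by 2.03 to 12.7 points, and 359 (95.5%) reached an unadjusted p of 0.05, against 4.09% of all shared CpGs. Spaceflight retinas M21 to M27 and M29 had means of 28.7, 25.4, 28.8, 24.9, 27.7, 22.1, 24.6 and 26.4%, and ground control retinas M31 to M37 and M39 had 34.5, 32.6, 27.2, 30.3, 34.4, 29.1, 33.5 and 27.8%. Thus 6 of 8 ground control retinas lay above every spaceflight retina, and M33 and M39 lay within the spaceflight range. The means were 26.1 ± 2.29% and 31.2 ± 2.96% (SD, n = 8 each), a difference of −5.12 points, or −5.30 in right and −4.82 in left retinas and −5.68 (without M33) to −4.55 points (without M26) when 1 retina was left out. The CpGs share reads and copies and move together, so their number adds no independent evidence. None of them passed the adjusted threshold, at a lowest unadjusted p of 2.37e-05 in the logistic model (adjusted p of 0.865). The stretch took 3.38 ± 0.154% of the reads on shared CpGs in spaceflight and 3.48 ± 0.214% in ground control retinas, and the part of depth or copy number in the difference was not tested.

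The difference ran through the whole stretch, from −4.23 to −5.62 points in its 6 kilobase bins. The ribosomal run printed above, the third longest of all, had 25.3, 30.6 and 34.5% in spaceflight and 30.6, 37.6 and 41.2% in ground control retinas, and all 42 of its CpGs reached an unadjusted p of 0.05. Without the stretch, 3.81% of the remaining members had such a p (2550 lower and 1889 higher), and 5.17% were called in the test of spread.

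Other members with very many reads were mostly lower too. Outside the stretch 101 members in 18 places had a median of at least 500 reads. All 18 places were lower after spaceflight, with a median difference of −4.15 points over these members, while 52.0% of all members were lower at any p. Members of a place can share reads and all places come from the same retinas, so counts of members or places add no independent evidence. Of the 101, 78 had an unadjusted p of at most 0.05, against 4.09% of all shared CpGs and 8.88% of members with a median of 100 reads or more. That 8.88% counts the ribosomal stretch and these 101 members as well. The lowest p among them was at Txndc11 (chr16:11144058-11144122, 8 members, 5653 reads), with 22.7 ± 2.0% against 27.7 ± 2.6% (lowest unadjusted p of 1.19e-05 in the logistic model, adjusted p of 0.865), and the deepest place, near Gm36876 (19 members, 8856 reads), had 25.4 ± 1.5% against 30.1 ± 3.0%. Gm33780, Sfi1, LOC115490388, Gm32719 and Jarid2 differed by less than 1 point in the mean. Jarid2, a partner of the Polycomb complex, had 27.7, 31.04 and 59.9% in spaceflight and 30.4, 35.1 and 37.3% in ground control retinas, so its mean rested on 1 retina. Of the 18 places, 1 (near Gnb1l) shared stretches of 20 bases with the ribosomal stretch (70.5% of them), and what the others are was not tested.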

How the data were processed

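DNA of 16 retinas (8 spaceflight, 8 ground control, by the condition labels) was analysed. Alignment by the authors was to GRCm38 with Bismark, after adapter trimming (Trim Galore 0.4.5), and copies of a molecule were dropped by their random tag. The deposited tables give, for each CpG cytosine and strand, the count of reads and the percent of them that is methylated, so reads of repeats placed on 1 position enter its level. The authors made the FPKM table with TopHat2 and Cufflinks; 15 of its columns were averaged as a description, 3 columns were not used, and 1 RNA library with conflicting labels was left out.

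Strands were summed and CpGs read 10 or more times in all libraries kept. Each CpG was tested by quasi-binomial logistic regression, the overdispersion not below 1, with Benjamini-Hochberg adjustment over all shared CpGs, in Python 3.11.15 with numpy 2.4.6 and scipy 1.17.1. The code was tested on simulated data. A promoter is within 1000 bp of a RefSeq gene start. Spread beyond sampling is the within-group variance minus the mean binomial variance. A call of 10 points uses pooled reads; printed means weight retinas equally. Sequences and gene positions are from the RefSeq annotation and genome of GRCm38.

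Named were the 12 runs with the most members, the 5 members lowest in p in each direction with 10 points or more, the 6 with the largest spread at 30 reads or more, imprinted genes with runs of 5 or more, the 5 windows lowest in p, and genes with the most members per list; some genes these rules name are not reported here. Members and lists were chosen with earlier results of these data known. Expected sampling spread covers counting error only. Alternatives were read minimum, level range, depth, overdispersion, eye, window and gap settings, and each library left out.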

Additional observations from a re-analysis of the deposited data

Results flagged for a closer look

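In each group of 8 retinas, the gap of the lowest or highest retina to its neighbour, as a share of the group's range, was set against Dixon's 95% critical value for 8 samples, for the means and named runs, CpGs and windows. It was passed in 4 of 74 groups, and chance alone gives about 1 in 20. Over all members, M31 was the lowest ground control retina at 51.6%, with the next at 54.0% and the highest at 55.1%. In the Grb10 run, M34 was lowest among ground control retinas at 46.0%, with the next at 49.7%. At the Parvaos CpG, M21 was lowest among spaceflight retinas at 53.5%, with the next at 59.7%. In the Mxra7 window, M37 was lowest among ground control retinas at 44.9%, with the next at 49.7%.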

How the results depend on the processing

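Of 72 results under alternatives other than leaving out 1 library, 56 stayed within the limits set for them and 16 moved. With at least 20 reads in every library, members made up 10.6% of autosomal CpGs, 66.9% of next CpGs within 50 bp were members, 6.54% of members were over-dispersed, and 603 reached an unadjusted p of 0.05 with 10 points (58.0% lower). At 30 to 70% there were 66609 members (6.37%), of which 53.0% had a member as the next CpG within 50 bp and 2630 reached an unadjusted p of 0.05. For neighbours at 76 to 150 bp, beyond 1 read, the share was 51.8%, against 66.4% within 50 bp. Over-dispersed members were 4.94% without the 0.1% of CpGs with the most reads and 5.17% without the ribosomal stretch, an alternative chosen after seeing the data. The binomial test without overdispersion called 77 members and put 12428 at an unadjusted p of 0.05, and its construction ignores the spread between retinas. Its counts over all shared CpGs were not taken. In left retinas alone, 58.2% of the members with such a p and 10 points were lower. Partly methylated windows with at least 5 CpGs and such a p numbered 553, as fewer windows were tested. For the other shifts the cause was not tested.

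Leaving out 1 library gave 2.31% (without M31) to 5.47% of members over-dispersed and 46.5% (without M22) to 65.5% (without M31) lower. No member or window was called in any of these (4519 to 4977 members and 948 to 1112 windows reached an unadjusted p of 0.05), while the differences at the ribosomal stretch and the imprinted runs kept their sign. With eye as a covariate no member was called, and 4692 reached an unadjusted p of 0.05. Depth limits the members: those with a median under 30 reads were called over-dispersed in 2.64% of cases, against 16.99% at 100 reads or more. No paired analysis was possible because the labels give the retinas no numbers shared between the groups.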
